A study of Rattus norvegicus with 6 samples.

Results

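The genes described here are those that fetal liver and precancerous liver lesions are known for: Afp, Gpc3, Igf2, Dlk1, Gstp1, Akr1b10 and Igf2bp3. They were chosen by name, and 7 of the 9 genes named had a row among the 16209 rows of the expression table, while Akr1b8 and Sox4 were not analysed here. RNA was sequenced from whole liver of rats with liver fibrosis, 3 samples from rats given ginkgetin, a biflavone found in ginkgo leaves, in a dose of 10 mg/kg/day, and 3 from rats given vehicle. The labels give no strain, sex, age or length of treatment, and do not say how fibrosis was brought about. The vehicle columns carry the letters TAA, which the labels do not explain, and every direction below rests on taking them as the vehicle samples. The labels call the samples replicates without saying that each came from its own animal, so the tests measure the spread between these samples.

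In rodents these genes are active in the liver before birth or in altered hepatocytes, and most are nearly silent in the healthy adult organ. Fetal hepatocytes secrete alpha-fetoprotein and switch to albumin after birth, and hepatoblasts carry Dlk1 and Gpc3 on their surface while Igf2 drives fetal growth. In the rat, Gstp1, the placental form of glutathione S-transferase, is the standard marker of preneoplastic foci, although bile duct cells of normal liver also contain it.

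The upstream sequences of 3 members are shown because Gstp1 and Gpc3 were the members whose groups did not overlap, and Afp is the member by which fetal hepatocytes are best known. Each is the 250 bases before the gene start, from RefSeq on GRCr8, on the coding strand. Capitals mark matches to 4 motifs, searched on both strands. The AP-1 element was searched as TGANTCA and may overlap the core of the antioxidant response element, searched as TGACNNNGC. The TATA box was searched as TATAAA. The CCAAT box was searched under these 5 letters. The positions are chr1:210769706-210769955 for Gstp1, chr14:17875646-17875895 for Afp and chrX:137157599-137157848 for Gpc3, all on the minus strand.
Gstp1: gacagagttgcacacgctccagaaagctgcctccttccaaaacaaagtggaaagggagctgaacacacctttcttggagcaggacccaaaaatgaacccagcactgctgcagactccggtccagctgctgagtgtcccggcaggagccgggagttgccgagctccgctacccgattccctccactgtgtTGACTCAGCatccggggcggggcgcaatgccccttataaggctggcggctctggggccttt
Afp: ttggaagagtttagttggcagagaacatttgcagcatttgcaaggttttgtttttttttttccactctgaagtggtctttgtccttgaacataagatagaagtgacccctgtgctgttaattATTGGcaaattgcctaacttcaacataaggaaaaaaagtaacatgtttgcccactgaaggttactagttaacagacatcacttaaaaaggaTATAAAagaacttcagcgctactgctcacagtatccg
Gpc3: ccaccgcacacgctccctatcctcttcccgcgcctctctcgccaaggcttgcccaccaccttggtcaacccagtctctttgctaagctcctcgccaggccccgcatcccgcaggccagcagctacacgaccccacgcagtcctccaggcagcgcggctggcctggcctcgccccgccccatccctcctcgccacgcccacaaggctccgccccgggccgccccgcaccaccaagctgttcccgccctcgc
The Gstp1 sequence held 1 AP-1 match at positions -61 to -55 from the start, inside a match to the antioxidant core at -61 to -53. Of 33469 rat promoter windows of 300 bases, 7.33% held the first motif and 12.1% the second. The Afp sequence held a TATA box at -37 to -32 (14.2% of windows hold one) and a CCAAT box on the other strand at -128 to -124 (37.5%). The Gpc3 window had no match to the 4 motifs and a G+C content of 71.0%, against a median of 51.7% over all windows. All 7 members had a promoter in the table, and the windows of Igf2, Dlk1, Akr1b10 and Igf2bp3 also held no match. These matches describe letters, and binding was not measured.

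Gpc3 and Dlk1, the hepatoblast surface proteins, had the lowest levels with ginkgetin relative to vehicle, at log2 fold changes of -3.21 and -4.13. The enzymes Gstp1 (-1.52) and Akr1b10 (-1.84) also had lower means, Afp differed little (-0.14), and Igf2 (1.53) and Igf2bp3 (1.23) had higher means. Fold changes are differences of log2(normalized reads + 1), ginkgetin minus vehicle. No member passed a Benjamini-Hochberg threshold of 0.05 over the 14639 genes tested with limma, where 0.0137% of all genes passed. At an unadjusted p of 0.05, limma took 3 of the 7 members, Gpc3, Dlk1 and Gstp1, all of them lower, and 13.2% of all genes tested were lower at that level. On whole reads recovered from the values, DESeq2 called the same 3 genes (7.45% of its genes were called lower) and edgeR called none. At an unadjusted p of 0.05, edgeR took 2 of the 6 members it tested and 19.8% of all its genes. All 7 members passed the filter on low values.

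The 6 libraries held 13372367 to 14933853 reads assigned to genes. Alb, the gene of albumin, took 6.56% to 12.1% of reads in the ginkgetin libraries, against 9.44% and 7.77% in vehicle replicates 1 and 2 and 2.89% in vehicle replicate 3, which stood apart from the others. Normalized reads summed to 8265117 in vehicle replicate 3 and to 11768875 in vehicle replicate 2. In vehicle replicate 1 and the ginkgetin libraries they summed to 15863575 to 16991873. Scaling to equal totals therefore moved the median log2 fold change of all genes to -0.53, from -0.02. Values with and without this library are given for each member. Whole liver was sequenced, so fewer cells of a type and less RNA per cell cannot be told apart.

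**Figure D1:**
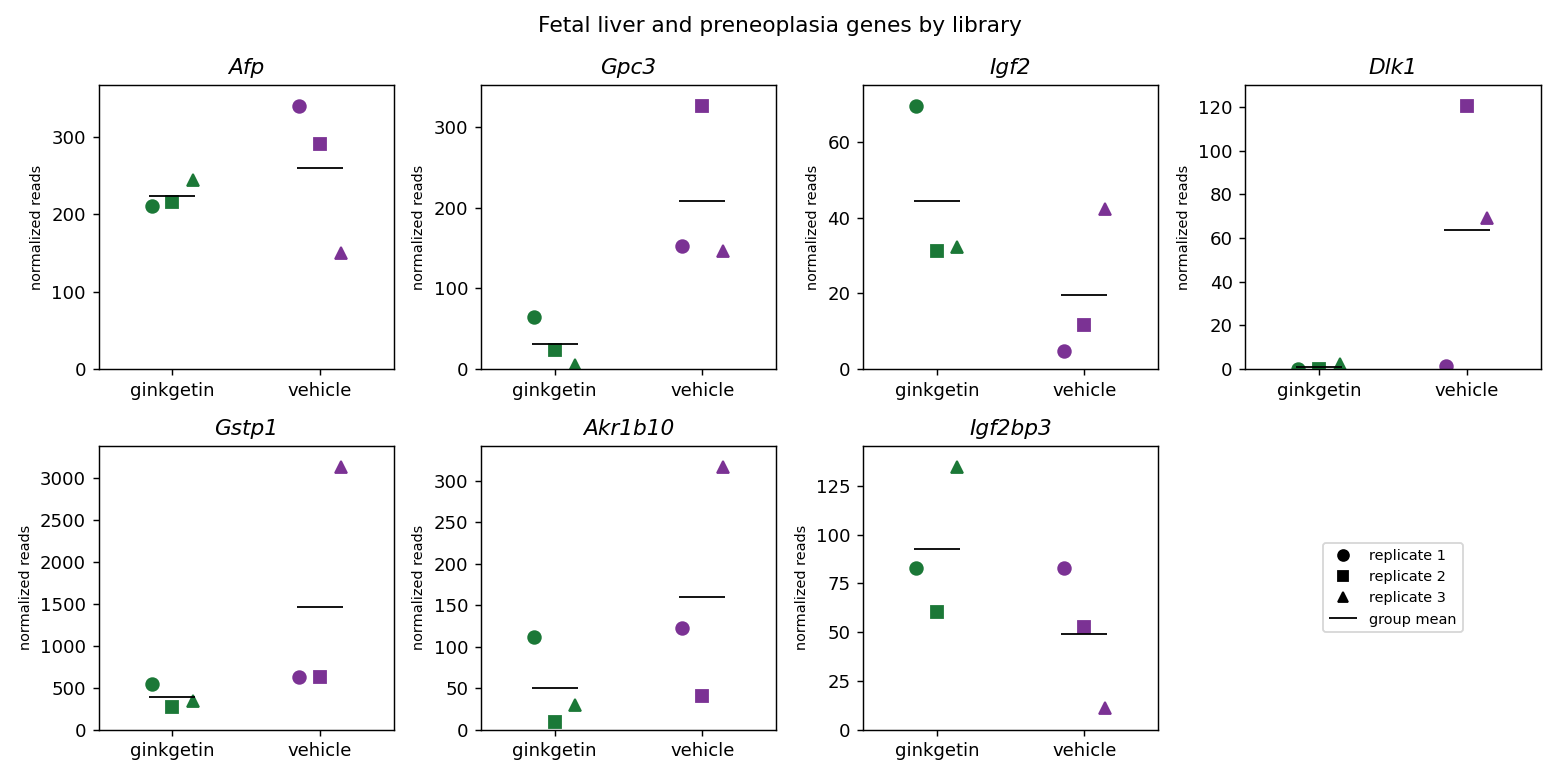
Normalized reads of the 7 members in each library, with ginkgetin on the left and vehicle on the right of each panel. Points are libraries and bars are group means. Gpc3 and Gstp1 are the members whose groups do not overlap, and vehicle replicate 3 is the highest library for Gstp1 and Akr1b10 and the lowest for Afp and Igf2bp3.

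Afp encodes alpha-fetoprotein, the main serum protein of the fetus. It stood at 211, 216 and 245 normalized reads in ginkgetin replicates 1 to 3, against 340, 291 and 149.8 in vehicle replicates 1 to 3. The ginkgetin libraries lay close together and inside the vehicle range, because vehicle replicate 3 was the lowest of all 6. The means were 224 ± 18.2 with ginkgetin and 260.4 ± 99.0 with vehicle (SD, n = 3 each). On the log2 scale the fold change was -0.14 (SE 0.33, limma adjusted p = 0.835), with a 95% interval from -0.89 to 0.62. Without vehicle replicate 3 it was -0.49, and the remaining groups did not overlap, as for 18.9% of genes on the lower side. Without vehicle replicate 1 the sign turned, at 0.10.

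Relative to the size of the library or to albumin, the Afp groups did not overlap. Afp made up 12.8, 13.3 and 14.4 reads per 1000000 reads in the ginkgetin libraries, against 21.5, 24.7 and 18.1 in the vehicle libraries. This is the scaling to equal totals, where 25% of all genes were lower without overlap. There Afp lay at -0.65 on the log2 scale, -0.13 from the median of all genes. Per 10000 Alb reads of the same library, a ratio that no scaling of libraries affects, Afp stood at 1.95, 1.10 and 1.32 with ginkgetin and at 2.27, 3.18 and 6.28 with vehicle. Every ginkgetin library was below every vehicle library in this ratio, as were 16.3% of all genes tested in their own ratio to Alb. The difference was -1.33 on the log2 scale and -0.93 without vehicle replicate 3. Its exact two-sided permutation p was 0.1, the smallest that 3 against 3 libraries allow. In normalized reads Alb had a log2 fold change of 1.20 (SE 1.42, limma adjusted p = 0.651), or 0.43 without vehicle replicate 3. That of Afp was -0.14, so over all 6 libraries the difference in the ratio lay mostly in Alb. Without vehicle replicate 3 Afp lay at -0.49 and Alb at 0.43, so both genes then entered the difference. The ratio of Afp to Alb and the scaling per 1000000 reads were looked at after the values had been seen.

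**Figure D2:**
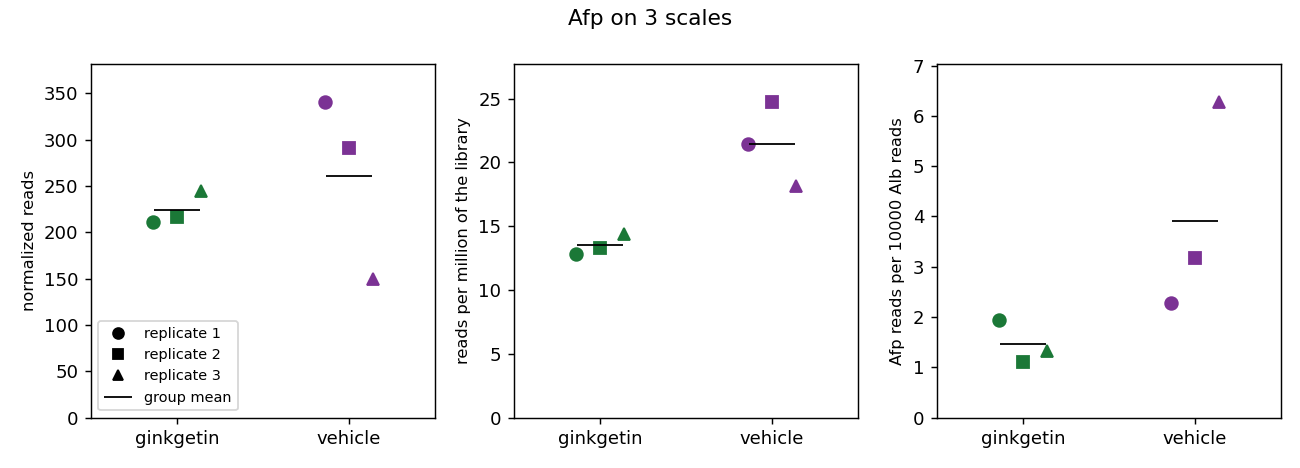
Afp in each library as normalized reads (left), reads per 1000000 reads of the library (middle) and reads per 10000 Alb reads (right). Points are libraries and bars are group means. The groups overlap on the left, where vehicle replicate 3 lies at 149.8, and do not overlap in the other panels.

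Gpc3 encodes glypican-3, a heparan sulfate proteoglycan anchored to the cell surface. It had 64.1, 23.1 and 4.95 normalized reads with ginkgetin, against 152, 326 and 147 with vehicle. All ginkgetin libraries lay below all vehicle libraries, of which replicate 2 was the highest. The means were 30.7 ± 30.3 and 208 ± 102 (SD, n = 3 each, ginkgetin and vehicle). The log2 fold change was -3.21 (SE 0.82, limma adjusted p = 0.112), with a 95% interval from -5.08 to -1.33, and 1.46% of the genes tested lay as low or lower. With 1 library left out it ran from -4.02 to -2.30, and it was -3.41 without vehicle replicate 3. The level in ginkgetin replicate 3 rested on 4 reads. DESeq2 gave -2.75 (adjusted p = 0.00754).

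Dlk1 encodes a membrane protein of the Notch ligand type, expressed from the paternal allele. It was at 0, 0 and 2.47 normalized reads with ginkgetin, and at 1.19, 121 and 69.4 with vehicle. Vehicle replicates 2 and 3 were high and vehicle replicate 1, with 1 read, lay within the ginkgetin range, so the groups overlapped. The ginkgetin libraries held 2 reads in all and the vehicle libraries 259. After scaling, the ratio of vehicle over ginkgetin was 90.8, with an exact 95% counting interval from 24.9 to 754, and it was 59.4 (16.1 to 497) without vehicle replicate 2. These intervals cover counting error only. The log2 fold change was -4.13 (SE 1.45, limma adjusted p = 0.180), and it depends on the 1 added before taking logs: with 0.5 added it was -4.74 and with 5 added -2.76. Without vehicle replicate 1 limma gave -5.93 (adjusted p = 0.0201), a setting in which 3.32% of genes were called lower. It was -3.43 without vehicle replicate 3 (adjusted p = 0.325). DESeq2 gave -6.32 (adjusted p = 0.00291).

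Igf2 encodes insulin-like growth factor 2, an imprinted growth factor that rodent liver makes before birth. It had 69.7, 31.2 and 32.2 normalized reads with ginkgetin, against 4.75, 11.6 and 42.4 with vehicle. Vehicle replicate 3 lay between the ginkgetin libraries and the other vehicle libraries lay below all of them. This gave a log2 fold change of 1.53 (SE 0.78, limma adjusted p = 0.300), with a 95% interval from -0.25 to 3.31. It was 2.31 without vehicle replicate 3, where the groups no longer overlapped, as for 14.8% of genes on the higher side, and limma still gave an adjusted p of 0.124. Without vehicle replicate 1, the lowest library, it was 0.85 (limma adjusted p = 0.459). Vehicle replicates 1 and 2 rested on 4 and 14 reads. Counting by strand is not stated, so reads of an overlapping or antisense transcript could be included.

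Gstp1 conjugates glutathione to electrophiles. It stood at 546, 273 and 346 normalized reads with ginkgetin, against 629.9, 624 and 3133 with vehicle. The groups did not overlap, yet ginkgetin replicate 1 and the lower vehicle libraries were close, and vehicle replicate 3 lay far above the rest. On the lower side, 16.1% of all genes tested had groups without overlap, and 2 of the 7 members did, Gpc3 and Gstp1. On the higher side this was 11.4% of all genes and no member. The means were 389 ± 141 with ginkgetin and 1462 ± 1447 with vehicle (SD, n = 3 each). Gstp1 had a log2 fold change of -1.52 (SE 0.61, limma adjusted p = 0.220, 95% interval -2.93 to -0.12), and of -0.75 without vehicle replicate 3. DESeq2 gave -1.91 (adjusted p = 0.0439). Per 10000 Alb reads the groups overlapped, at 5.04, 1.39 and 1.87 with ginkgetin and 4.20, 6.82 and 131 with vehicle.

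Akr1b10 encodes an aldo-keto reductase that reduces aldehydes and retinal, and its human counterpart is raised in liver cancer. It had 112, 9.26 and 29.7 normalized reads with ginkgetin, against 122, 40.8 and 317 with vehicle. Ginkgetin replicate 1 lay above vehicle replicate 2, so the groups overlapped, and vehicle replicate 3 was again the highest. The log2 fold change was -1.84 (SE 0.97, limma adjusted p = 0.317, 95% interval -4.08 to 0.40). Leaving out vehicle replicate 3 gave -1.13, and leaving out ginkgetin replicate 2 gave -1.0. Aldo-keto reductases of this subfamily are close in sequence, and so are glutathione transferases, so the division of reads among relatives is uncertain for both enzymes.

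Igf2bp3 encodes an oncofetal RNA-binding protein which, in human cells, binds IGF2 messenger RNA. It had 82.9, 60.2 and 135 normalized reads with ginkgetin, against 83.0, 52.4 and 11.0 with vehicle. The first replicates of both groups were at nearly the same level and vehicle replicate 3 was the lowest library. Its fold change was 1.23 on the log2 scale (SE 0.72, limma adjusted p = 0.358, 95% interval -0.42 to 2.88) but 0.40 without vehicle replicate 3.

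**Figure D3:**
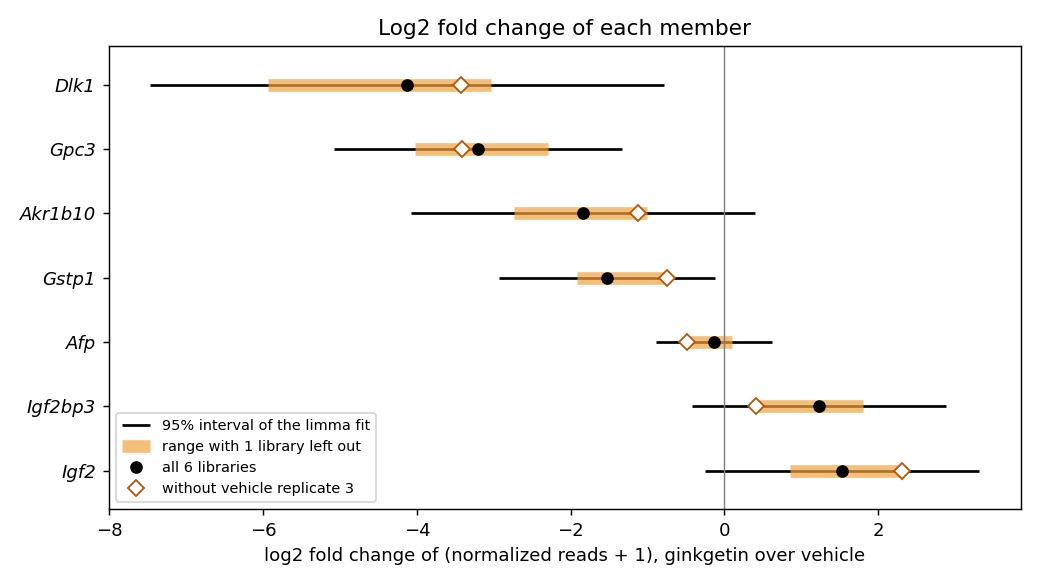
Log2 fold change of each member, ginkgetin over vehicle, on log2(normalized reads + 1). Dots are the fits to all 6 libraries, thin lines their 95% intervals, thick bars the range with 1 library left out, and diamonds the fits without vehicle replicate 3. The intervals of Dlk1, Gpc3 and Gstp1 lie below 0, and Gstp1 lies at -0.75 without vehicle replicate 3.

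The members did not share one profile over the libraries. Measured as the root mean square difference between profiles of log2(normalized reads + 1), each centred over the 6 libraries, the closest pair was Gstp1 and Akr1b10, at 0.86. Afp and Igf2bp3 came next at 0.88, and Dlk1 and Igf2bp3 were farthest apart at 3.62. Vehicle replicate 3 lay at 2.31 for Gstp1 and 2.35 for Akr1b10 on the centred log2 scale, and at -0.64 for Afp and -2.26 for Igf2bp3. Gpc3 was highest in vehicle replicate 2, at 2.35, and Dlk1 likewise, at 4.26.

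Cell type markers differed in mean between the groups along with the members. Of the markers tested, 11 of 11 for cholangiocytes and ductular cells, 12 of 13 for stellate cells and myofibroblasts and 12 of 12 cell cycle genes had lower means with ginkgetin. For hepatocytes 15 of 15 had higher means, with a median log2 fold change of 1.20, which was 0.51 without vehicle replicate 3. Cholangiocyte and ductular markers summed to 0.00371% to 0.00717% of normalized reads in the ginkgetin libraries and to 0.0173%, 0.0269% and 0.263% in vehicle replicates 1 to 3. Stellate cell and myofibroblast markers made up 0.0267% to 0.0471% with ginkgetin and 0.0810%, 0.134% and 1.61% in vehicle replicates 1 to 3. Macrophage markers, 7 of 11 of them lower, made up 0.0344% to 0.0644% with ginkgetin and 0.0537%, 0.0469% and 0.411% in vehicle replicates 1 to 3. For these lists the upper value with vehicle was thus that of replicate 3 alone, and without it the median log2 fold change was -2.20 for cholangiocyte, -1.08 for stellate cell and 0.04 for macrophage markers, against -2.62, -1.62 and -0.46 with it. Hepatocyte markers, all 15 of them found, made up 12.5% to 19.8% with ginkgetin and 16.0%, 15.2% and 5.83% in vehicle replicates 1 to 3, so the labelled tissue has its defining markers. Endothelial markers (2 of 7 lower) and lymphocyte markers (7 of 8 lower) summed to at most 0.0237% and 0.00317% with ginkgetin, and to at most 0.0503% and 0.0171% with vehicle, both in replicate 3. No hepatocyte, stellate cell, macrophage, endothelial or lymphocyte marker found in the table was at 0 throughout a group. The part of these differences in the levels of Gstp1, Gpc3, Dlk1 and the other members was not tested.

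**Figure D4:**
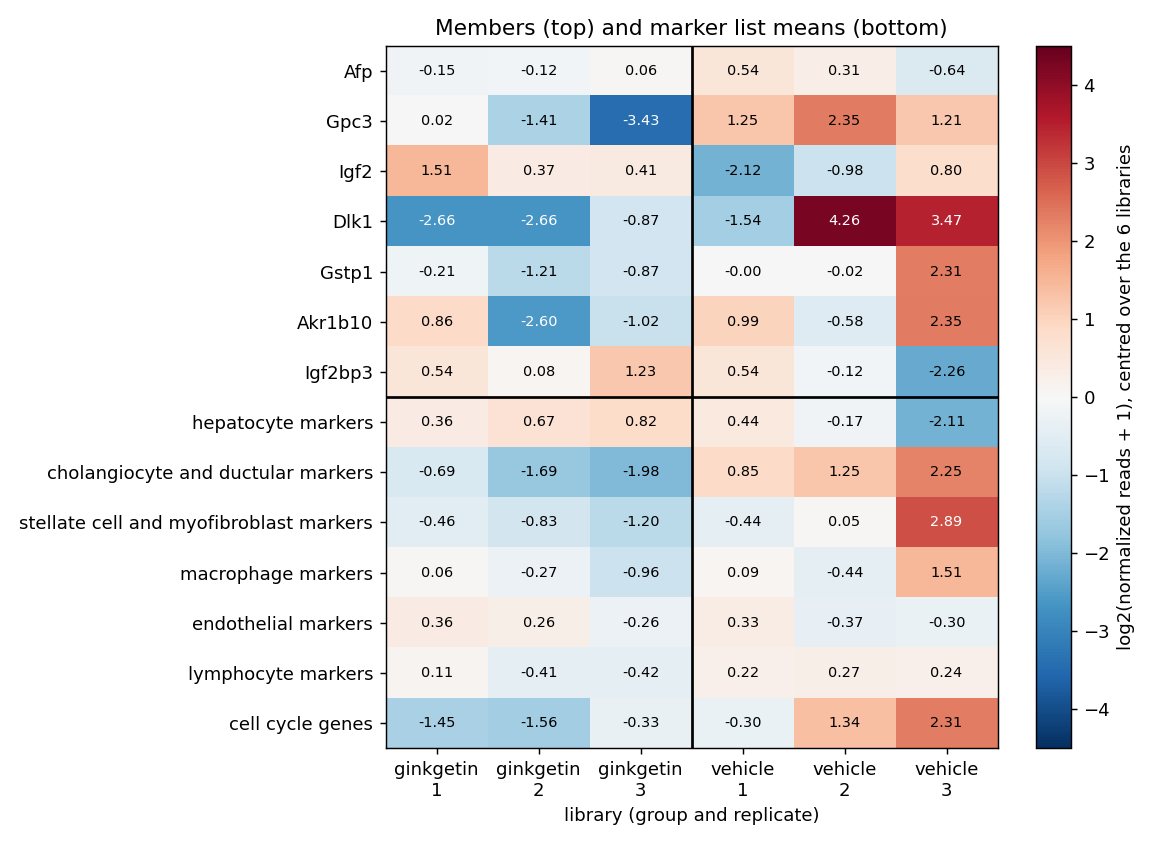
Centred log2(normalized reads + 1) of the 7 members (upper rows) and mean over each marker list (lower rows) in the 6 libraries, with ginkgetin on the left. Red is above and blue below the gene's own mean over the libraries. Vehicle replicate 3 is lowest for hepatocyte markers, at -2.11, and for Igf2bp3, and highest for stellate cell and myofibroblast markers, at 2.89, and for Gstp1 and Akr1b10.

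Among the 6853 better expressed genes with a symbol, those with the profile nearest to each member were as follows. Gstp1 lay nearest to Tmsb4x (root mean square difference 0.0987), which encodes thymosin beta 4, and to Fcer1g (0.112), a signalling chain of Fc receptors. Akr1b10 lay nearest to S100a9 (0.526), a calcium-binding protein of myeloid cells, and to Crip1 (0.634). Afp lay nearest to Ttc13 (0.0929) and Rreb1 (0.118), and Igf2bp3 to Mlxipl (0.136), the carbohydrate response factor of hepatocytes, and to Xpnpep2 (0.181). Gpc3 lay nearest to Bok (0.529), a BCL2 family gene, and Adamtsl2 (0.605), a secreted matrix protein, and Igf2 to Myh11 (0.516), smooth muscle myosin, and Rgs3 (0.602). For Dlk1 the nearest were Tubb6 (1.43) and Mki67 (1.53), the Ki-67 proliferation marker, at a much larger distance. With 6 libraries many genes can share a profile, and these distances are descriptions.

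Oncofetal and imprinted growth genes other than the members lay on both sides of 0. Of 15 tested, 10 had lower and 5 higher means, with a median log2 fold change of -0.44, against -0.02 over all genes. Leaving out vehicle replicate 3 gave the list a median of -0.17, and leaving out vehicle replicate 1 gave -0.91. None passed over all genes in limma, where 4 were lower and 2 higher at an unadjusted p of 0.05, as were 13.2% and 7% of all genes tested. DESeq2 called 3 of 14 (9.28% of all its genes were called), and edgeR none, with 4 of 10 at an unadjusted p of 0.05 (19.8% of all its genes). Cd24, a surface protein of hepatic progenitor cells, had 124, 25.5 and 43.3 normalized reads with ginkgetin and 197, 290.3 and 393 with vehicle (log2 fold change -2.43, SE 0.56, limma adjusted p = 0.101). Gpc1, another glypican, stood at 0, 0 and 6.19 with ginkgetin and at 9.49, 17.5 and 60.2 with vehicle (-3.56, or -4.22 with 0.5 and -2.08 with 5 added before taking logs). Lin28a, an RNA-binding protein that blocks let-7 maturation, stood at 0, 0 and 2.47 with ginkgetin and at 7.12, 7.49 and 4.91 with vehicle (-2.29, or -2.93 with 0.5 and -1.0 with 5 added). Its ginkgetin libraries held 2 reads and its vehicle libraries 23, a scaled ratio of vehicle over ginkgetin of 8.07 (exact 95% counting interval 1.99 to 70.6). This interval covers counting error only, and the limma adjusted p of Lin28a was 0.163. Peg3, an imprinted zinc finger gene, was on the other side, at 528, 434 and 638 with ginkgetin and 339, 229.5 and 207 with vehicle (1.06, SE 0.27, adjusted p = 0.111). With equal library totals Peg3 lay at 0.54, where the median of all genes was -0.53.

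Enzymes of rat preneoplastic foci and their relatives divided evenly, with 9 of 18 tested lower and 9 higher and a median log2 fold change of -0.05. Leaving out vehicle replicate 2 turned that median to 0.63, leaving out ginkgetin replicate 1 to 0.48, and keeping only genes with at least 10 normalized reads in 3 or more libraries to 0.36. In limma none passed over all genes, with 3 lower and 3 higher at an unadjusted p of 0.05, against 13.2% and 7% of all genes. DESeq2 called 5 of 17, against 9.28% of all its genes, and edgeR none, with 9 of 16 at an unadjusted p of 0.05, against 19.8% of all its genes. Ggt1, the gamma-glutamyltransferase by which foci are stained, stood at 36.5, 16.2 and 8.66 normalized reads with ginkgetin and at 84.2, 96.5 and 74.3 with vehicle. Its log2 fold change was -2.22 (SE 0.55) at a limma adjusted p of 0.109, and leaving out vehicle replicate 3 gave -2.31. Nqo1, a quinone reductase, had 61.9, 152 and 271 with ginkgetin and 408, 395 and 486 with vehicle (-1.64, limma adjusted p = 0.139, and -1.07 without ginkgetin replicate 1). The groups of both genes did not overlap, and vehicle replicate 3 was the lowest vehicle library for Ggt1 and the highest for Nqo1. Without overlap, 4 of the 18 genes were lower and 3 higher, against 16.1% and 11.4% of all genes tested. Ugdh, which makes UDP-glucuronate, had 1379.8, 1924 and 2289 with ginkgetin and 773, 606 and 626 with vehicle (1.46, SE 0.27, adjusted p = 0.0804). Gclm, the modifier subunit of the first enzyme of glutathione synthesis, stood at 803, 1514 and 1027 with ginkgetin and at 562, 401 and 427 with vehicle (1.23, adjusted p = 0.101). With equal library totals, where the median of all genes was -0.53, Gclm lay at 0.71 and its groups overlapped. Ugdh lay at 0.94 there and its groups did not overlap.

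The albumin family and regulators of Afp lay on the higher side, with 12 of 14 tested genes above 0 and a median of 1.04, which was 0.46 without vehicle replicate 3. None passed in limma, DESeq2 or edgeR. At an unadjusted p of 0.05, limma took 1, a higher one (7% of all genes), DESeq2 3 of 14 (20.3% of all its genes) and edgeR none. Zbtb20, which represses Afp in mouse liver after birth, had 65.2, 115 and 120.0 normalized reads with ginkgetin and 54.6, 67.4 and 13.5 with vehicle. Its groups overlapped, and the fitted change was 1.36 on the log2 scale (SE 0.62, limma adjusted p = 0.263), or 0.66 once vehicle replicate 3 was left out. The fitted log2 changes of the hepatocyte factors Cebpa and Foxa1 were 0.96 and 1.32, at limma adjusted p values of 0.244 and 0.303, and that of Foxa1 was 0.49 without vehicle replicate 3.

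Of the IGF axis, 9 of 15 genes tested were higher and 6 lower, with a median of 0.30, which was 0.07 without vehicle replicate 3. With equal library totals it was -0.15, against -0.53 over all genes. None passed in limma, where 2 were lower and 4 higher at an unadjusted p of 0.05, against 13.2% and 7% of all genes. DESeq2 called 3 of 15 (9.28% of all its genes), and edgeR none, with 4 of 14 at an unadjusted p of 0.05 (19.8% of all its genes). Igf1, the adult liver's circulating growth factor, stood at 5884, 6185 and 6377 normalized reads with ginkgetin and at 3738, 1805 and 1294 with vehicle (log2 fold change 1.58, SE 0.44, limma adjusted p = 0.128). Igfals, which stabilises IGF complexes in blood, had 3406, 4848 and 4982 with ginkgetin and 2711, 1001 and 259.6 with vehicle (2.29, adjusted p = 0.165, and 1.40 without vehicle replicate 3). The binding proteins Igfbp5 (-2.58) and Igfbp7 (-1.80) were lower in every ginkgetin library than in any vehicle library, with limma adjusted p values of 0.120 and 0.140. Of the 15 genes, 2 were lower and 4 higher without overlap, as were 16.1% and 11.4% of all genes tested. Unlike Igf2, Igf1 kept its groups apart with all 6 libraries.

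**Figure D5:**
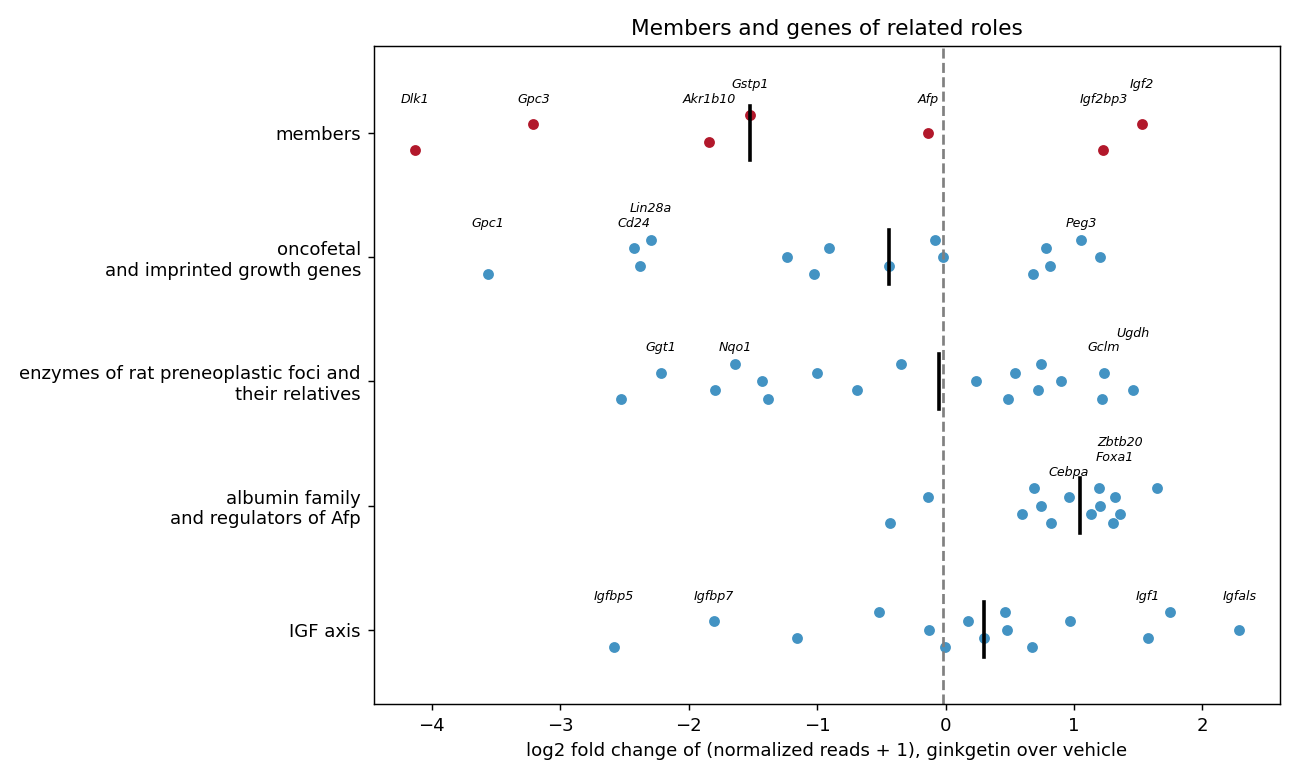
Log2 fold changes, ginkgetin over vehicle, of the 7 members (top row) and of the tested genes of the related lists. Each point is a gene, black bars are medians and the dashed line is the median of all 14639 genes tested, at -0.02. The median of the members is -1.52 and that of the albumin family and regulators of Afp is 1.04.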

How the data were processed

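Per the labels' protocols, total RNA of each liver sample went into a SMARTER mRNA library kit. The submitters' processing notes name mRatBN7.2 as genome build. No source used here gives the aligner, counter, annotation or strand setting. The deposited values are a signal, normalized reads per gene. Dividing by each library's smallest positive value gave whole numbers (within 0.02) for 99.67% of values, so reads were recovered in this way. In 53 of 16209 rows they were not, and these were rounded for count tests. Of the row names, 23 had become dates and none of these is named.

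The ginkgetin columns were assigned to samples by group name and number. The TAA columns carry no group name of the labels and were taken as the vehicle samples, matched by number. Genes reaching 1 normalized read in 3 or more libraries were tested on log2(value + 1) with limma 3.58.1 (R 4.3.3; mean-variance trend, robust moderation, no replicate block), two-sided, with Benjamini-Hochberg adjustment over 14639 genes at 0.05. Because the deposited values are not raw counts, edgeR 4.0.16 (quasi-likelihood) and DESeq2 1.42.0 were run on recovered reads as alternatives. Others were another pseudocount, filter or scaling, a replicate block, and each library left out. The procedure was tested on simulated reads with known changes, among which no library stood apart as vehicle replicate 3 did. The members and lists were chosen with earlier results of these data known. Every member is named, with the 4 genes of smallest limma p per related list and the 2 nearest profiles per member, leaving out placeholder names. Some genes that these rules select are not reported here. Of listed genes, those without a row were not analysed here. Promoters are from RefSeq on GRCr8, which is not the build of the expression data, and carry no measured value.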

Additional observations from a re-analysis of the deposited data

How the results depend on the processing

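The count of genes past 0.05 in limma was 2 (2963 at an unadjusted p of 0.05). It was 5 with a pseudocount of 5, 1 with quantile scaling and 94 with equal library totals. It was 0 with edgeR (2469 at an unadjusted p of 0.05), 6 with edgeR without a filter and 1324 with DESeq2. Leaving out 1 library gave 0 to 753 genes, with 753 without vehicle replicate 1 and 112 without vehicle replicate 3. The other 4 gave 0, with 1716 to 2783 at an unadjusted p of 0.05. Of the 7 members, 0 passed in limma and 3 in DESeq2 (Gpc3 at -2.75, Dlk1 at -6.32 and Gstp1 at -1.91). Over all its genes DESeq2 called 9.28%. With 1 library left out limma called 0 to 1 member, and Dlk1 ran from -5.93 to -3.03. The 1 was Dlk1 without vehicle replicate 1, where 3.32% of all genes were called lower. Afp reversed to 0.10 without vehicle replicate 1 and ran from -0.49 to 0.10. DESeq2 called 3 of 14 oncofetal, 5 of 17 foci and 3 of 15 IGF axis genes, beside 9.28% of all its genes. With 1 library left out limma called 0 to 2, 0 to 3 and 0 to 2 genes of these lists. The upper counts came without vehicle replicate 1, out of 15, 18 and 15 genes tested. In that setting 753 of all 14328 genes were called. The albumin family and Afp regulators had 0 in every setting run. The cause of these differences was not tested.

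With replicate number as a block 0 genes passed in limma (2382 at an unadjusted p of 0.05), and no member did, the smallest adjusted p being 0.212, for Gpc3. The labels do not say that equal numbers mark a shared animal or batch. Deviations from the group means correlated at -0.163, 0.0295 and -0.211 between libraries numbered 1, 2 and 3. Between libraries of unlike number they correlated at -0.103 to 0.198. With 3 libraries per group, these values cannot decide whether equal numbers mark a shared animal or batch. The other 106 member values kept their direction. Among them, the Afp level relative to Alb had no adjusted p, and the rest stayed short of the threshold. Dlk1 had no value with a minimum of 10 reads or in edgeR with its filter. Depth limits Dlk1, with 2 reads over the ginkgetin libraries, and ginkgetin replicate 3 of Gpc3, with 4.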

Other observations

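Other glypicans were looked at after the values of Gpc3 had been seen. Gpc2 had 14.4, 0 and 4.95 normalized reads with ginkgetin and 17.8, 23.3 and 39.9 with vehicle, and Gpc6 had 6.63, 0 and 2.47 with ginkgetin and 5.93, 11.6 and 28.8 with vehicle. The log2 fold changes were -2.56 for Gpc2 and -2.21 for Gpc6, and neither passed over all genes in limma. Gpc4 was on the other side, at 612, 964 and 939 normalized reads with ginkgetin and 559.9, 499 and 392 with vehicle (0.78), and at 0.26 with equal library totals.

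Of the aldo-keto reductases related to Akr1b10, Akr1b1 had 209, 123 and 92.8 normalized reads with ginkgetin and 179, 212 and 1124 with vehicle. Akr1b7 had 1.11, 0 and 2.47 with ginkgetin and 2.37, 118 and 2.46 with vehicle, so 1 vehicle library held nearly all of its reads. The highest library was vehicle replicate 3 for Akr1b1 and Akr1b10 and vehicle replicate 2 for Akr1b7.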
